A study of Mus musculus with 15 samples.

Results

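The release machinery of the synaptic vesicle is described here by 8 genes, Snap25, Stx1a, Vamp2, Cplx1, Syt1, Sv2a, Syp and Syn1, out of 23235 genes in an RNA-seq table of mouse cortex. The genes were chosen by name, and the values given are their transcript levels in 4 groups and the peaks of 5 ChIRP-seq lists at their loci. The study asked where the long non-coding RNA 116HG, the spliced host transcript of the Snord116 snoRNA cluster in the Prader-Willi region, associates with chromatin, and how cortical transcripts differ without it. WT mice were C57BL/6J, and Snord116del mice were B6(Cg)-Snord116tm1.1Uta/J heterozygotes labelled Snord116del (+/-). According to the paper, the Snord116del mice inherited the deletion from heterozygous fathers, and the WT mice of the RNA-seq were littermates. All mice were adult. RNA-seq was made of brain cortex of 3 WT and 2 Snord116del mice at Zt+6, in the light phase, and of 2 WT and 2 Snord116del mice at Zt+16, in the dark phase, all male. The table holds 1 value for each group, so the spread between mice cannot be seen and no difference between groups below was tested. The table holds no read counts, so no counting error is given for its values. Its unit is FPKM, fragments counted per kilobase of transcript and scaled to the mapped fragments, in which levels of different genes can be compared per length. ChIRP-seq retrieves an RNA with biotinylated oligos from crosslinked tissue and sequences the DNA that comes with it. It was made from 1 hemisphere of adult brain, with 116HG oligos in 2 WT libraries and 1 Snord116del library, and with nonspecific control oligos (NSC) in 1 WT and 1 Snord116del library.

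Neurotransmitter is released when a synaptic vesicle fuses with the presynaptic membrane. Fusion is driven by a bundle of SNARE proteins, in which VAMP2 on the vesicle zips together with syntaxin-1A and SNAP-25 on the target membrane. Synaptotagmin-1 senses the calcium that enters with an action potential, and complexins bind the assembled SNARE bundle and tie its fusion to that signal. SV2A and synaptophysin span the vesicle membrane, and synapsin I coats the vesicle and ties it to its reserve pool.

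The 8 genes lie on 6 chromosomes of NCBIM37, the assembly of mm9, and nearly all of their exons carried a peak of a WT library with 116HG oligos. The sequences below are 3 of those peaks, read 5′ to 3′ on the strand of the gene, and are shown because each spans a whole coding exon with the intron bases beside it. Capitals mark exon bases and lower case marks intron bases. Vamp2 exon 3 at chr11:68903224-68903399 (plus strand) holds much of the coding sequence of the SNARE motif. Syt1 exon 6 at chr10:108079259-108079464 (minus strand) codes for the membrane-spanning stretch. The third is Sv2a exon 12 at chr3:95997107-95997368 (plus strand).
Vamp2 exon 3: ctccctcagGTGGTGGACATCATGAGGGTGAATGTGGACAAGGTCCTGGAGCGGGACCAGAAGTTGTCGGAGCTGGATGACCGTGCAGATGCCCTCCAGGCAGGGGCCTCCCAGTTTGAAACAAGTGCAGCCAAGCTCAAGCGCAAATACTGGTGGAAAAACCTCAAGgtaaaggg
Syt1 exon 6: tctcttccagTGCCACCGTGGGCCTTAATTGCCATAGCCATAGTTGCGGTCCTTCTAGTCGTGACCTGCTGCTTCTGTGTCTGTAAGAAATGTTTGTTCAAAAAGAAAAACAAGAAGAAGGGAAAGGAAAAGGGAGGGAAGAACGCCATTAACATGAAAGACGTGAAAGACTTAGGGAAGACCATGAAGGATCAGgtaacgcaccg
Sv2a exon 12: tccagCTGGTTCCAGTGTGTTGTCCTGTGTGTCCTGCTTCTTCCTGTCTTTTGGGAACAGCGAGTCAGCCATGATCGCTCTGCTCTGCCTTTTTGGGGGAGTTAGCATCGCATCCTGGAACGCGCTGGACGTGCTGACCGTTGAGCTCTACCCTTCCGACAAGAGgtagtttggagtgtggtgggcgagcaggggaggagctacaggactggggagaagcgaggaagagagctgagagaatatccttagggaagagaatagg

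Snap25 has a pair of alternative exons, 5a and 5b, of which a transcript carries 1, and the b form is known to prevail in adult brain. The annotation places exon 5a at chr2:136595479-136595596 and exon 5b at chr2:136595793-136595910, both 118 bases on the plus strand and 196 bases apart. They are printed because a peak lay over each of them at very different heights. Capitals mark the 31 positions at which the exons differ, and 73.7% of the bases are identical.
Snap25 exon 5a: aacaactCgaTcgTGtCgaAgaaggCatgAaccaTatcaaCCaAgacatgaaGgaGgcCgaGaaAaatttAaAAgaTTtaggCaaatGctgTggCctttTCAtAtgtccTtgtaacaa
Snap25 exon 5b: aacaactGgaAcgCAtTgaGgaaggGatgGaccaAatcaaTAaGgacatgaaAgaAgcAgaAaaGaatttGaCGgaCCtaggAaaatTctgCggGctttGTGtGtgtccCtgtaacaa
The peak over exon 5a was 191 bases wide and 31.8-fold over input, and the peak over exon 5b was 232 bases wide and 247-fold over input. The peak at exon 5b was thus 7.75 times as high, in a single library. The longest run of bases without a difference between the exons is 8.

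The table lists Snord116 itself at 0 in every group, so that row checks no label. Of 23235 genes, 10297 reached a mean of 1 FPKM over the 4 groups and were compared, all 8 genes among them. The fold rule called a gene higher or lower on a ratio of FPKM + 1 of 1.5 or more, provided that the larger FPKM was 1 or above, and differences are given on the log2(FPKM + 1) scale. Both Snord116del mice and 1 WT mouse at Zt+6 carry labels that name an earlier version of the table than those of the other mice. The tissue label was checked with 9 neuron markers that are not among the 8 genes. Their summed level was 378.8 to 634.8 FPKM, and none of them was at 0 in every group. No striatum or hippocampus marker used below was at 0 in every group either, so this check cannot tell cortex from other brain regions. In a bulk sample, fewer cells of a type and less RNA per cell cannot be told apart.

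The target membrane SNARE genes were Snap25 and Stx1a. Snap25 (chr2:136539189-136608164, plus strand, 8 exons) had the highest level of the 8 genes in every group, with 481 FPKM in WT and 589.7 FPKM in Snord116del at Zt+6, and 417 FPKM in WT and 545 FPKM in Snord116del at Zt+16. It was higher in Snord116del by 0.29 at Zt+6 and by 0.39 at Zt+16 on the log2 scale, below the fold rule both times. Relative to its level, it varied less between the groups than the other 7 genes. Stx1a (chr5:135499352-135526970, plus strand, 10 exons) had 51.9 FPKM in WT and 37.0 FPKM in Snord116del at Zt+6, and 52.3 FPKM in WT and 77.5 FPKM in Snord116del at Zt+16. It was the only 1 of the 8 genes that was lower in Snord116del at Zt+6, with a log2 difference of -0.48, and at Zt+16 the log2 difference was 0.56. Neither passed the fold rule. By time, Stx1a differed by 0.01 on the log2 scale in WT and was higher at Zt+16 in Snord116del, by 1.05 on the log2 scale.

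Vamp2 (chr11:68901992-68905886, plus strand, 5 exons), the vesicle SNARE, had 81.8 FPKM in WT and 150.1 FPKM in Snord116del at Zt+6, and 70.5 FPKM in WT and 122 FPKM in Snord116del at Zt+16. Both Snord116del groups were above both WT groups, and both genotype differences passed the fold rule, at 0.87 and 0.78 on the log2 scale. By time it differed by -0.21 in WT and -0.30 in Snord116del. Cplx1 (chr5:108947573-108979043, minus strand, 4 exons), which encodes complexin-1, had 92.2 FPKM in WT and 94.1 FPKM in Snord116del at Zt+6, and 112 FPKM in WT and 148 FPKM in Snord116del at Zt+16. Its genotype difference was 0.03 at Zt+6 and 0.40 at Zt+16. Only its time difference in Snord116del passed the fold rule, at 0.65.

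Syt1 (chr10:107934706-108448038, minus strand, 12 exons), the calcium sensor, had 42.8 FPKM in WT and 134 FPKM in Snord116del at Zt+6, and 19.4 FPKM in WT and 28.0 FPKM in Snord116del at Zt+16. The Snord116del group at Zt+6 stood above the other 3. The genotype difference was 1.62 on the log2 scale at Zt+6, a 3.13-fold difference in FPKM, and 0.51 at Zt+16. Both Zt+16 groups were below both Zt+6 groups, by 2.21-fold in FPKM in WT and 4.78-fold in Snord116del.

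Sv2a (chr3:95985074-95999444, plus strand, 13 exons) varied more between the groups than any other of the 8 genes. It had 10.5 FPKM in WT and 51.0 FPKM in Snord116del at Zt+6, and only 1.42 FPKM in WT and 2.01 FPKM in Snord116del at Zt+16. Its genotype difference at Zt+6 was 2.18 on the log2 scale, a 4.86-fold difference in FPKM, which lay at percentile 99.8 of all genes tested. At Zt+16 the genotype difference was 0.32, at percentile 44.4. Between the times, its FPKM was lower at Zt+16 by 7.43-fold in WT and by 25.4-fold in Snord116del. On the log2 scale of FPKM + 1 these differences were -2.25 and -4.11, at percentiles 0.155 and 0.107 of the time differences. Sv2a ranked 484th of the genes tested in Snord116del at Zt+6 and 7335th in WT at Zt+16.

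Syp (chrX:7215597-7230382, plus strand, 7 exons), which encodes synaptophysin, had 71.5 FPKM in WT and 116 FPKM in Snord116del at Zt+6, and 61.6 FPKM in WT and 120.2 FPKM in Snord116del at Zt+16. Both Snord116del groups were above both WT groups, and the genotype differences, 0.69 at Zt+6 and 0.95 at Zt+16, passed the fold rule. The difference at Zt+16 was at percentile 98.2 of all genes tested. An antisense lincRNA, Gm14703, overlaps all 1420 bases of its last exon, and whether the counting used strand is not given in the sources used here, so reads of the pair cannot be told apart there. Syn1 (chrX:20437637-20498130, minus strand, 13 exons), which encodes synapsin I, had 129 FPKM in WT and 174 FPKM in Snord116del at Zt+6, and 149.8 FPKM in WT and 215 FPKM in Snord116del at Zt+16. None of its differences, 0.43 and 0.52 by genotype and 0.22 and 0.30 by time, passed the fold rule. Timp1 lies in an intron of Syn1 on the other strand, and Araf shares 9 bases with its end.

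**Figure D1:**
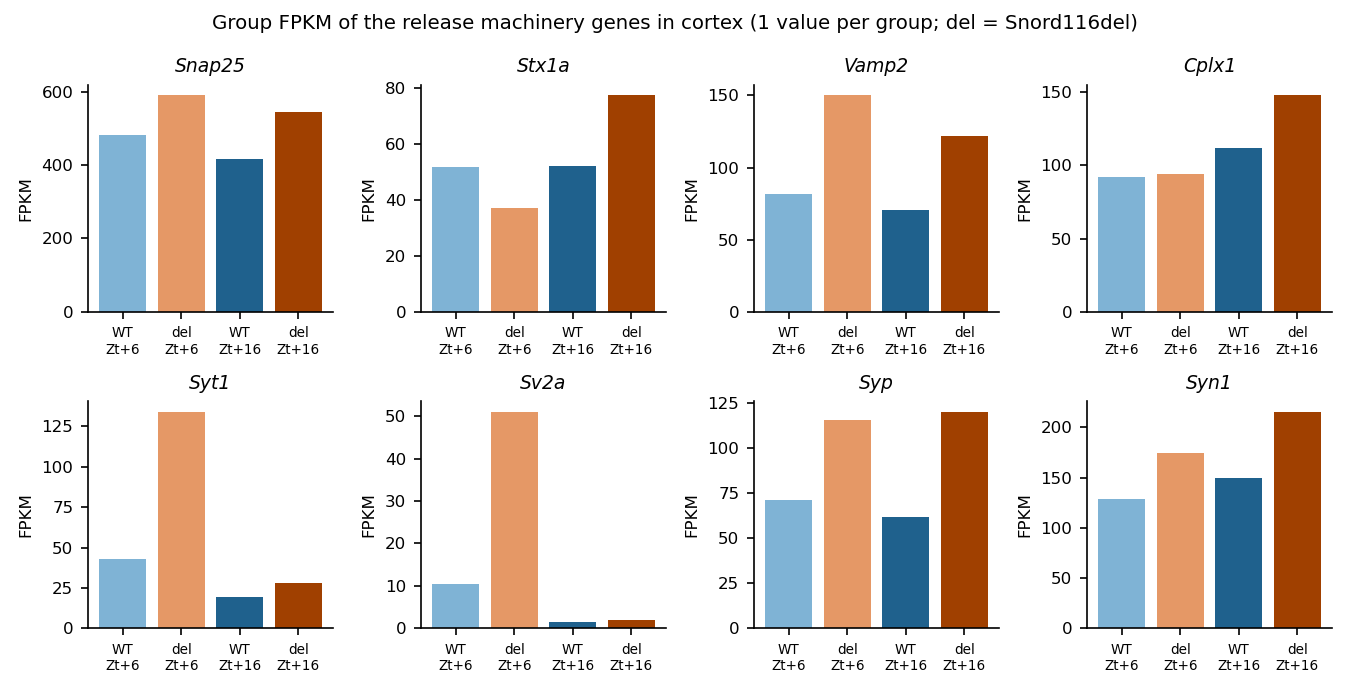
FPKM of each of the 8 genes (vertical axes, starting at 0, a scale of its own for each gene) in the 4 cortex groups, 1 bar for the single value of a group. Sv2a and Syt1 were highest in Snord116del at Zt+6, with 51.0 and 134 FPKM, and low in both groups at Zt+16, whereas the highest bar of Stx1a, 77.5 FPKM, is Snord116del at Zt+16.

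In the order of levels per length in WT at Zt+6, Snap25 was followed by Syn1, Cplx1, Vamp2, Syp, Stx1a, Syt1 and Sv2a. With 1 value for each group, it cannot be said which neighbours in this order differ beyond their spread. The ratio of 2 genes within a group does not move when that group is multiplied by 1 factor. It can move under quantile normalization or a subtracted length trend. Snap25 stood at 9.27 times the level of its SNARE partner Stx1a in WT at Zt+6, 15.9 times in Snord116del at Zt+6, 7.97 times in WT at Zt+16 and 7.03 times in Snord116del at Zt+16. The ratio of Vamp2 to Stx1a was 1.58, 4.06, 1.35 and 1.57 in the same order of groups. In both ratios Snord116del at Zt+6 stood apart from the other 3 groups, which lay close together. The ratio of Sv2a to Syp, both proteins of the vesicle membrane, was 0.147, 0.440, 0.0230 and 0.0167, so that it differed more by time than by genotype.

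The first comparison asked how the genotypes differed at Zt+6. Vamp2, Syt1, Sv2a and Syp were higher and none was lower, which is 4 of 8 genes where 49.3% of all genes tested were called higher and 7.62% lower. As deposited, the count is close to the background, and the median log2 difference of the 8 genes, 0.56, was close to that of all genes tested, 0.57. When every group was scaled to the same median FPKM, 2 genes were higher (Sv2a and Syt1) and 2 were lower (Stx1a and Cplx1), and the log2 differences of Vamp2 and Syp were 0.04 and -0.13. That scaling moved the median of all genes from 0.57 to -0.06, and 15.0% of all genes were then higher and 24.4% lower. Quantile normalization went the other way, with 6 of the 8 genes higher and none lower against 22.2% and 20.6% of all genes, and a median of 1.04 for the 8 genes against 0.03. Snap25 at 1.14 and Syn1 at 0.92 were the genes that it added. The standing of the 8 genes against all genes at Zt+6 thus depended on the scaling.

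At Zt+16, Vamp2 and Syp were higher in Snord116del and none was lower, against 19.0% called higher and 0.204% called lower among all genes tested. All 8 genes had a positive difference, as did 9965 of the 10297 genes tested, so this count is near the background. The median was 0.52 against 0.35 for all genes tested. Scaling the groups to the same median or the same sum of FPKM, or quantile normalization, left no gene past the fold rule, with all-gene medians of 0.01, -0.11 and -0.00. The genotype difference at Zt+6 minus that at Zt+16 was 1.86 for Sv2a, 1.11 for Syt1 and -1.04 for Stx1a, and between -0.37 and 0.09 for the other 5 genes.

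Between the times, Sv2a and Syt1 were lower at Zt+16 than at Zt+6 in WT and none of the 8 genes was higher, against 10.3% lower and 5.71% higher among all genes tested. In Snord116del, the same 2 genes were lower and Stx1a and Cplx1 were higher at Zt+16, against 39.1% lower and 25.0% higher of all genes tested. Scaled to the same sum of FPKM, 6 genes were lower and none higher in that comparison, with -0.06 for Stx1a and -0.47 for Cplx1, where the summed FPKM of the table was 342188 in Snord116del at Zt+16 and 160199 at Zt+6. Of all genes, 67.4% were lower and 7.95% higher under that scaling, so the count was near the background. Quantile normalization also gave 6 lower and none higher, against 28.2% lower and 30.2% higher of all genes. The 4 comparisons share groups with each other, so a gene that is high in 1 group differs in 2 of them. Among 5 choroid plexus markers, the summed level was 203 FPKM in WT and 187 FPKM in Snord116del at Zt+6 against 26.4 and 31.7 FPKM at Zt+16, nearly all of it Ttr, and 6 astrocyte markers summed to 51.4, 126, 34.4 and 52.1 FPKM in the order of groups used above. In the same order, 4 hippocampus markers summed to 12.1, 27.7, 4.75 and 5.28 FPKM, 6 endothelium markers to 38.8, 74.1, 46.1 and 62.4 FPKM, and 6 striatum markers to 26.8, 75.9, 25.5 and 48.1 FPKM. At Zt+6, all 6 astrocyte markers were higher in Snord116del, as were all 3 hippocampus, all 5 endothelium and all 5 striatum markers that passed the filter on low values. Of all genes tested, 49.3% were higher there. Other lists were mixed, with 6 of 9 neuron, 3 of 6 oligodendrocyte, 3 of 5 microglia and 1 of 2 choroid plexus markers higher. Of 5 excitatory neuron markers 3 were higher and 1 lower, and of 6 inhibitory neuron markers 2 were higher and 2 lower. None of these markers was at 0 in every group, and the part of these cell types and regions in the differences of Sv2a and Syt1 was not tested.

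**Figure D2:**
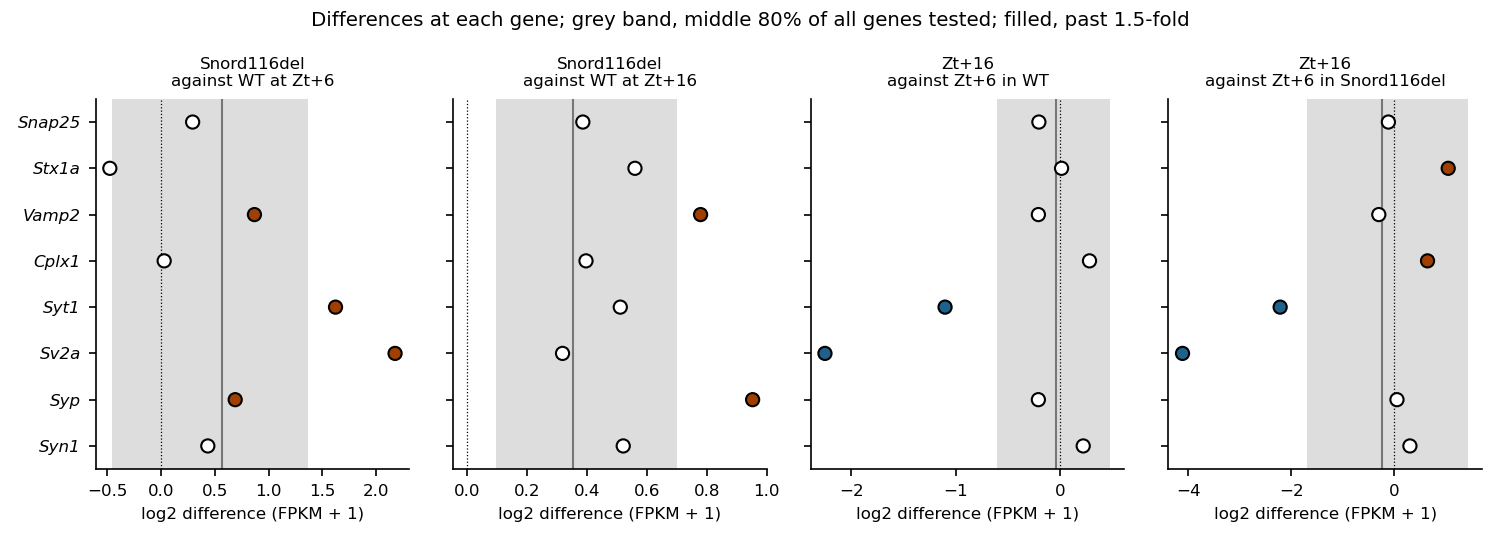
Log2 difference of FPKM + 1 (horizontal axes, each panel on its own scale) for the 8 genes in the 4 comparisons, filled where past the 1.5-fold rule (brown higher, blue lower), with the median of all genes tested as a grey line and the middle 80% of them as a grey band. At Zt+6 the difference of Sv2a, 2.18, and of Syt1, 1.62, lie beyond the band, while the other genes lie in it or, for Stx1a at -0.48, at its lower edge.

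The differences in the table went with transcript length. Over 9941 genes with a coding transcript, Spearman's rho between the log2 difference and the length of the longest coding transcript was 0.65 for the genotype difference at Zt+6, -0.40 for that at Zt+16, -0.51 for the time difference in WT and -0.64 for that in Snord116del. These are correlations across genes of the same libraries and are given as a description. Syt1 with 4820 bases and Sv2a with 4334 bases have the longest transcripts of the 8 genes, and the others have 2116 to 3261 bases. Genes with transcripts of 4000 to 5000 bases had a median genotype difference of 0.92 at Zt+6, with the lower and upper 10% bounds at 0.25 and 1.45, and both genes lay above the upper bound. In the time difference in Snord116del the same class had a median of -0.79 and a lower 10% bound of -1.78, and both genes lay below it. With the trend on the longest annotated transcript subtracted, the genotype difference at Zt+6 was 1.35 for Sv2a, 0.71 for Syt1, 0.52 for Vamp2 and 0.19 for Syp. On the same scale it was -0.82 for Stx1a and -0.63 for Snap25, which gives 2 genes higher and 2 lower. Of all genes, 12.6% were higher and 13.5% lower with that trend subtracted. The longest annotated transcript of Snap25, at 4880 bases, is a retained intron, and with the longest coding transcript used in its place the value of Snap25 was -0.06. In the genotype comparison at Zt+6 and in both time comparisons, Sv2a and Syt1 passed the fold rule in the same direction under each of the 7 other settings of the scaling, filter and threshold and the 1 added after the data were seen.

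**Figure D3:**
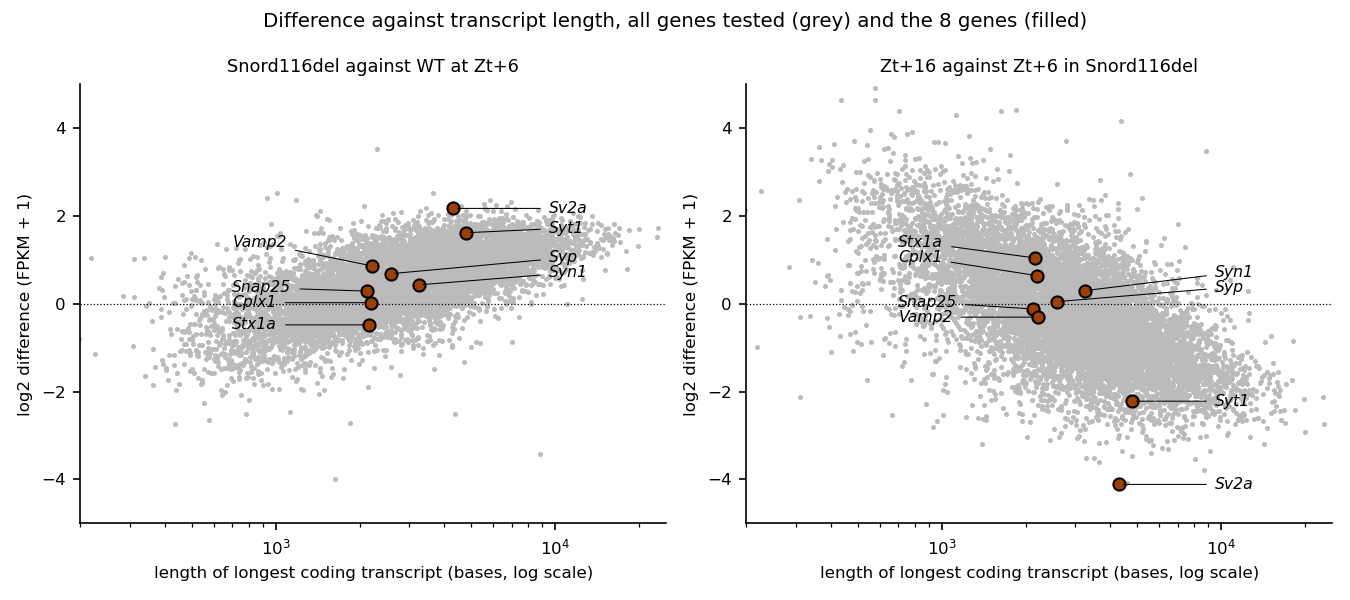
Log2 difference of FPKM + 1 (vertical axes) against the length of the longest coding transcript in bases (horizontal log axes) for genes tested (grey points) and the 8 genes (filled, named). Differences go up with length for the genotype at Zt+6 and down with length for the time in Snord116del, and Sv2a, at 2.18 and -4.11, lies at the outer edge in both panels; 4 genes on the left and 8 on the right lie outside the axes.

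Paralogs of the 8 genes were compared next. Sv2b, at 18.6, 51.5, 13.2 and 18.8 FPKM in the order of groups used above, was about level with Sv2a in Snord116del at Zt+6 (ratio of Sv2a to Sv2b 0.991), while the ratio was 0.565 in WT at Zt+6 and 0.107 in both Zt+16 groups. Sv2c had 1.98, 5.53, 1.59 and 2.25 FPKM in the same order, with a genotype difference of 1.13 on the log2 scale at Zt+6. The ratio of Vamp2 to Vamp1 was 4.08, 7.42, 2.42 and 2.62, and that of Snap25 to Snap47 was 6.33, 9.80, 3.45 and 3.23. Syn1 stood at 3.06 to 4.25 times Syn2, whose genotype difference at Zt+6 was -0.02, and Syn3 was at 0.972 to 4.24 FPKM. Cplx2 lay close to Cplx1, with a ratio of Cplx1 to Cplx2 of 1.13, 0.900, 1.53 and 1.33. Syp stood at 2.99 to 6.85 times its relative Synpr. Syt2 was at 0.344 to 2.31 FPKM in the cortex and highest in Snord116del at Zt+6.

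A wider list of 86 genes of the release cycle was described by role, and 84 of them passed the filter on low values (Syt2 and Syt17 did not). At Zt+6, 49 of the 84 were higher and 6 lower in Snord116del, with a median of 0.84, and at Zt+16 21 were higher and none lower, with a median of 0.41. The background shares for the genotype counts are those given above, 49.3% and 7.62% at Zt+6 and 19.0% and 0.204% at Zt+16. Over time, 5 were higher and 18 lower in WT, and 23 higher and 40 lower in Snord116del, against 5.71% and 10.3% of all genes in WT and 25.0% and 39.1% in Snord116del. The counts split by length: at Zt+6, 48 of 63 genes with a coding transcript of 3 kb or more were higher and 1 lower, whereas of 21 shorter ones 1 was higher and 5 were lower. Over all genes with a coding transcript, the difference at Zt+6 rose with length as well (Spearman's rho 0.65), so the split is not particular to this list. The shares of all genes called on either side of 3 kb were not computed. With the length trend subtracted, 11 were higher and 15 lower at Zt+6, where 12.6% and 13.5% of all genes were.

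SNARE partners, which load, unfold and recycle the SNARE bundle, were higher at Zt+6 in 6 of 12 with a median of 0.56, and 2 of 12 were higher at Zt+16. Of the 9 other synaptotagmins measured above the filter, 4 were higher at Zt+6 and 2 at Zt+16, and Syt11 had the highest level, at 39.8 to 67.1 FPKM, followed by Syt5 at 16.9 to 36.2 FPKM. Vesicle membrane and coat genes were split, with 12 of 25 higher and 2 lower at Zt+6, and 9 of 25 higher at Zt+16. Among the genes that were lower was Slc32a1, the vesicular GABA transporter gene, with 60.4 FPKM in WT and 18.9 FPKM in Snord116del. At Zt+16, Slc32a1 had 127 FPKM in WT and 258 FPKM in Snord116del, the opposite direction. Rab3a, a GTPase of the vesicle with the highest mean level in its list, had a genotype difference of -0.46 at Zt+6 and 0.71 at Zt+16.

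Active zone genes, which build the docking scaffold, had the highest median of the 5 roles at Zt+6, 1.32, with 16 of 19 higher and 1 lower, and a median of 0.25 at Zt+16. Bsn, the gene of the scaffold protein bassoon, had 16.5 FPKM in WT at Zt+6 against 47.1 FPKM in Snord116del, whereas the Zt+16 values were 10.5 and 13.1 FPKM. Lin7b was the gene that was lower, with 63.2 FPKM in WT and 29.2 FPKM in Snord116del at Zt+6. Its transcript of 735 bases is the shortest of the list, while that of Bsn has 15937 bases, and with the length trend subtracted the median of the list was 0.16. Genes of vesicle endocytosis, which retrieve the membrane after release, were higher in 11 of 19 and lower in 3 at Zt+6, with a median of 0.77. The 3 that were lower were Clta, the clathrin light chain A gene, with 86.3 and 39.9 FPKM, Sh3gl2, the endophilin A1 gene, with 66.1 and 38.7 FPKM, and Ap2s1, a subunit of the clathrin adaptor AP-2, with 60.6 and 35.0 FPKM. Dnm1, the neuronal dynamin gene, had a difference of 0.36, and Ap2m1, another AP-2 subunit and the highest of the list, one of -0.53.

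**Figure D4:**
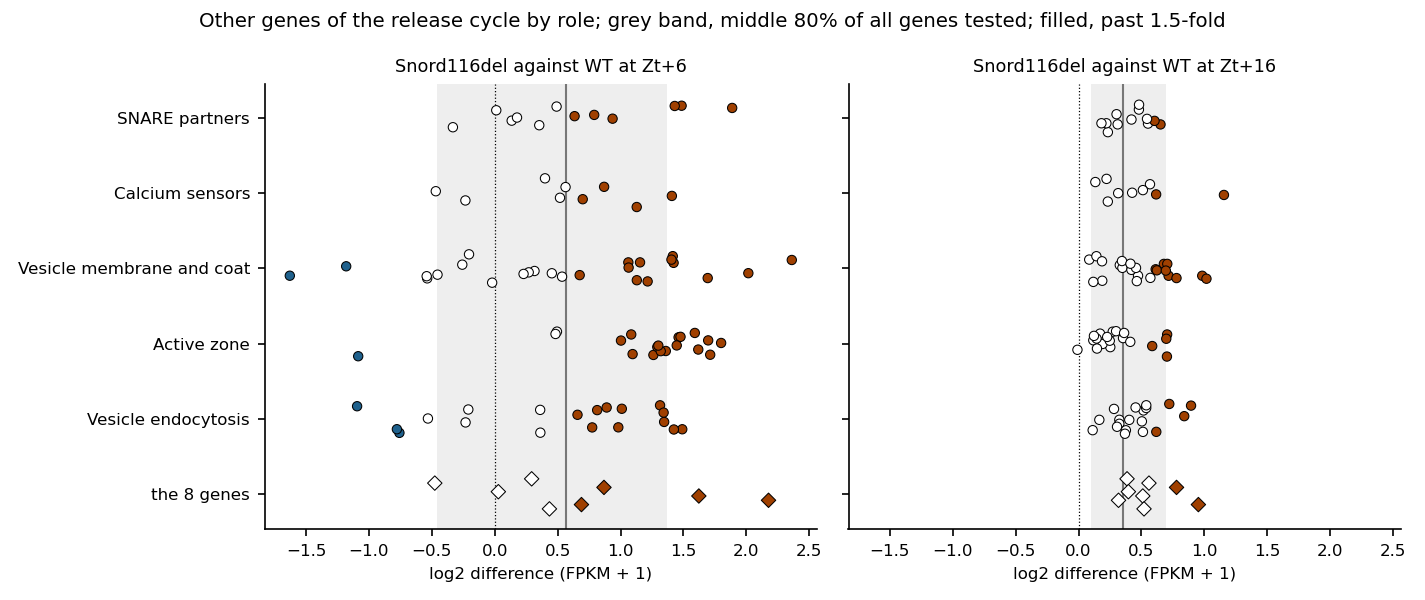
Log2 difference of FPKM + 1 between Snord116del and WT (horizontal axes) at Zt+6 and Zt+16 for 84 other genes of the release cycle by role (circles, spread vertically for legibility) and the 8 genes (diamonds), filled where past the 1.5-fold rule, with the median (grey line) and the middle 80% (grey band) of all genes tested. At Zt+6 most active zone genes lie to the right, with a median of 1.32, while Unc13b (0.49) and Ppfia4 (0.48) lie near the grey line and Lin7b lies to the left. At Zt+16 all roles lie close together.

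The genes most like the 8 in their pattern were sought among 2660 other genes whose mean reached 10 FPKM, by the distance between log2(FPKM + 1) profiles over the 4 groups, each centred on its mean. Nearest to the mean profile of the 8 genes were Nefl, D4Wsu53e, Nap1l3, Rundc3a and Hnrnpul2, at distances of 0.0882 to 0.0990. Nefl, the neurofilament light chain gene, had 34.5 FPKM in WT at Zt+6 against 61.5 FPKM in Snord116del, whereas the Zt+16 values were 26.3 and 37.9 FPKM. The 8 genes themselves lay 0.323 (Vamp2) to 2.87 (Sv2a) from their own mean, so the mean describes none of them closely.

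The second measure was the peaks of the ChIRP-seq lists at these loci. All 8 genes had peaks of WT 116HG replicate 1 inside the gene or within 2 kb of it, where 93.6% of the genes tested with an annotated position did. There were 133 such peaks, with 47 at Syt1, 27 at Snap25, 16 at Syn1, 13 at Sv2a, 10 at Stx1a, 9 at Syp, 6 at Cplx1 and 5 at Vamp2. None of the 8 genes had a peak of WT 116HG replicate 2, against 17.5% of all genes tested, nor a peak of WT NSC (2.53%), Snord116del 116HG (2.86%) or Snord116del NSC (10.6%). The lists differ in length, with 78033 peaks for WT 116HG replicate 1 and 11145 for replicate 2, against 3648, 1280 and 3418 for the 3 controls in the order just named. Counting a peak as replicated where both WT 116HG libraries had peaks no more than 10 kb apart, 1 of the 8 genes had a replicated peak, against 18.0% of all genes tested. That gene was Syt1, where the peak of replicate 2 at chr10:107929495-107929551 lay 5155 bases beyond the 3′ end of the gene. It was paired with the peak of replicate 1 over the last exon of Syt1, which it did not overlap. Every peak described below is from replicate 1, and no peak of replicate 2 overlapped any of them.

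Nearly all exons had a peak of replicate 1, while 71 of the 133 peaks touched an exon and 62 touched none. Of 72 exons in the longest coding transcripts of the 8 genes, 70 were touched by a peak, and 97.0% of exon bases but 2.10% of intron bases were covered. All genes tested had a peak on 33.3% of exons, with 34.1% of exon bases and 0.390% of intron bases covered, and in the 10% of genes with the highest mean FPKM in the WT groups these shares were 74.8%, 73.0% and 1.62%. With all genes split by that mean into 10 classes of equal size, 7 of the 8 genes fell in the highest and Sv2a in class 7, where 41.1% of exons had a peak, although all 13 exons of Sv2a had one. The 71 peaks that touched an exon had a median of 195-fold over input and the 62 that touched none had 41.0-fold, where the whole list had 55.3-fold. Only Stx1a had exons without a peak, the third and the fourth of 10.

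The edges of the peaks lay near the edges of the exons. For 54 internal exons touched by a single peak that touched no other exon, the median width was 124 bases for the exon and 174 bases for the peak, and 47 of these peaks covered the whole exon. They reached a median of 9.5 bases past the 5′ edge and 14.0 bases past the 3′ edge. On this assembly all 64 introns of the 8 transcripts begin with gt and end with ag, and the lower case flanks of the printed sequences show these bases beside the capitals. The widest peak of each gene lay over the last exon, which holds most of the 3′ UTR, with widths of 1263 (Stx1a) to 3116 bases (Syt1). It ended 1 to 13 bases past the annotated end of the transcript at 7 genes and 102 bases past it at Syn1, whose end Araf overlaps. At 6 genes that peak was also the highest of the gene, with 544-fold over input at Syp and 422-fold at Sv2a. At Snap25 the highest was over exon 6, at 432-fold, and at Syt1 over exon 6, at 435-fold, the sequence printed above.

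Most of the peaks outside exons were at 2 genes. Syt1, the longest gene at 513 kb, had 35 of the 62 peaks that touched no exon, and Snap25 had 19. At both genes these peaks had a median of 41.0-fold over input, against 301-fold and 250.2-fold for their peaks on exons. Of the Syt1 peaks counted as touching no exon, 1 covered the first exon of another coding transcript of the gene, at chr10:108445948-108446167, with 195-fold over input, and the lower peak over Snap25 exon 5a is among those of Snap25. Vamp2 and Sv2a had no peak outside exons. Base composition differed between the exons and introns of the 8 genes, with 43.4% to 58.5% GC in exons and 38.7% to 57.3% in introns, and Vamp2 was the only 1 of them with more GC in introns. The part of base composition, of transcript level and of spliced RNA in the library in this pattern was not tested.

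**Figure D5:**
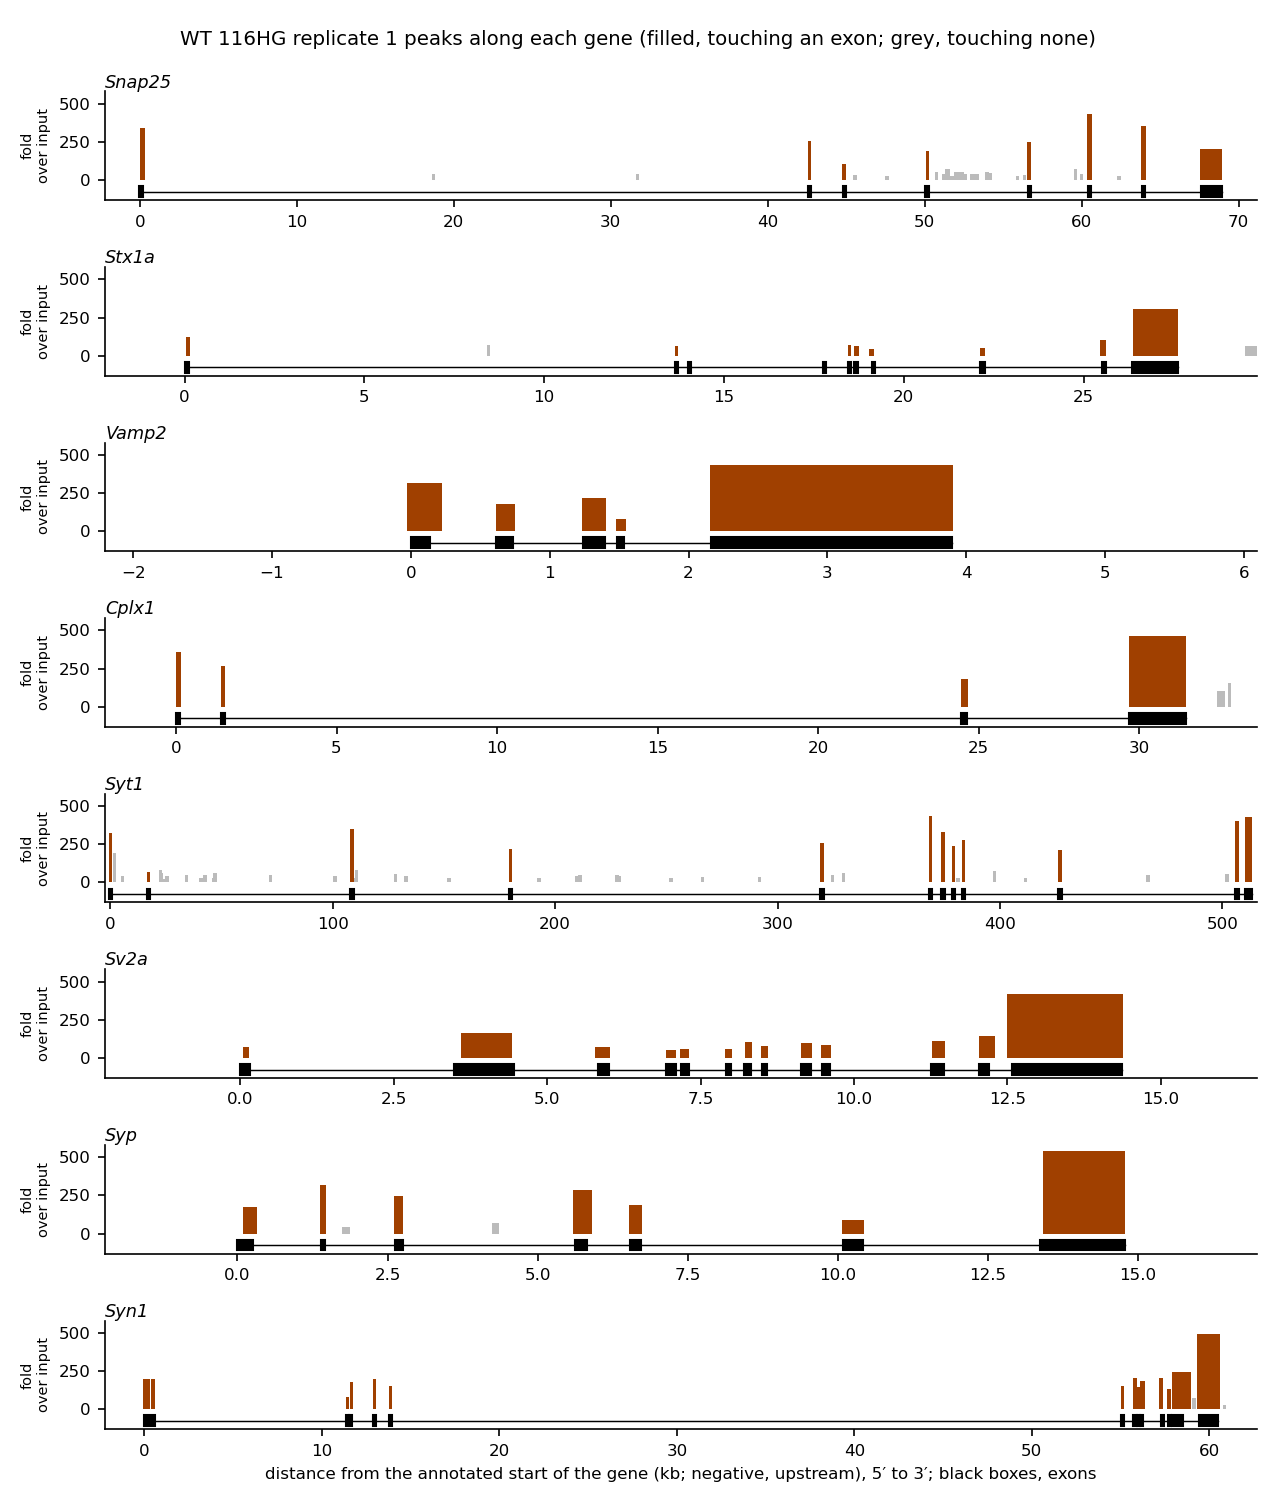
Peaks of WT 116HG replicate 1 along each of the 8 genes, with the distance from the annotated start of the gene in kb on the horizontal axes (5′ to 3′) and the fold over input on the vertical axes. Black boxes are the exons of the longest coding transcript, brown bars are peaks that touch an exon and grey bars those that touch none (very narrow boxes and bars are widened to be visible). A brown bar stands over 70 of the 72 exons, with the widest over the last exon of every gene.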

How the data were processed

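The FPKM values were made by the authors with TopHat2 2.0.5 and Cuffdiff 2.0.2 on mm9, 1 value per gene and group, and were used as deposited. Columns of the authors' own log2 fold changes, q-values and calls were not used. The ChIRP-seq peaks were called by the authors per library with Bowtie2 2.0.0 and MACS 1.4.2 against WT input, and 4 of the 5 deposited lists give the fold (ratio) over input, while that of WT 116HG replicate 2 gives positions only. Base calling used CASAVA 1.8.0, and versions follow the submitters' processing notes. Whether strand was used in counting is not given in the sources used here.

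Genes whose mean over the 4 groups reached 1 FPKM were compared by the 1.5-fold rule on FPKM + 1. Peaks were assigned to genes within 2 kb, on the GENCODE vM1 annotation of NCBIM37, and the printed sequences were read from that assembly. The 8 genes and all lists were chosen with earlier results of these data known, and the exon measures after peak positions were seen. Genes named besides the 8 were, for each role, the 2 with the highest mean FPKM, paralogs of the 8 genes, any past the fold rule against most of their list at Zt+6, and the 5 nearest profiles. A few genes that this rule names are not reported here. Alternatives were a pseudocount of 0.1, 3 scalings, a subtracted length trend (lowess, share of genes 0.3), no filter on low values, a 2-fold rule, and other peak windows. Scripts used Python 3.11.15, numpy 2.4.6, pandas 2.3.3, statsmodels 0.14.6 and matplotlib 3.10.9, and were tested on simulated data.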

Additional observations from a re-analysis of the deposited data

Results flagged for a closer look

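Stx1a differed between the genotypes in opposite directions at the 2 times, with a log2 difference of -0.48 at Zt+6 and 0.56 at Zt+16. Syp differed between the times in opposite directions in the genotypes, with a log2 difference of -0.21 in WT and 0.052 in Snord116del. None of these values passed the fold rule, and the signs depended on the scaling. At Zt+16 the summed FPKM was 342188 in Snord116del and 216422 in WT, and under the same sum the Stx1a difference there was negative. The Syp time difference in Snord116del was negative under the same sum and quantiles (values below). With 1 value for each group, neither difference was tested. No check for a mouse far from the others of its group could be made, since the table holds no values per mouse.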

How the results depend on the processing

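No paired analysis was possible because the table holds 1 value per group and no value per mouse. A pseudocount of 0.1 and no filter on low values left all 40 log2 values of the 8 genes on the same side of the fold rule, and the 2-fold rule left 35 of 40. The scalings and the subtracted length trends left 24 (quantile) to 32 (longest coding transcript, chosen after seeing the data) of 40. Unless stated, the cause of a move was not tested.

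At Zt+6, the number of the 8 genes higher in Snord116del went from 4 to 2 under the same median, either length trend and the 2-fold rule and to 6 under quantiles (median 1.04), and the number lower from 0 to 2 under the same median and the length trend and 1 under the coding length trend. Under the same median, their median difference was -0.26, with -0.13 for Syp and -0.79 for Cplx1, and under the length trend Snap25 was at -0.63. Of all genes at Zt+6, 26.7% were higher under the 2-fold rule, and 12.1% were higher and 12.4% lower under the coding length trend. At Zt+16, the number higher went from 2 to 0 under every scaling, the 2-fold rule and the coding length trend and to 1 under the length trend, and the median was -0.11 under the same sum. Of all genes, 0.311% (same sum) to 1.22% (same median and 2-fold) were higher at Zt+16 under these settings. The number lower at Zt+16 than at Zt+6 in WT went from 2 to 5 under the same sum, where 29.6% of all genes were lower. In Snord116del, the number higher went from 2 to 0 under the same sum and quantiles and 1 under the 2-fold rule, and the number lower from 2 to 6 under the same sum and quantiles, with medians of -1.15 and -1.57. There Stx1a was at -0.058 (same sum), and Cplx1 at -0.47 and -0.42, Syp at -1.06 and -1.19 and Syn1 at -0.82 and -1.27 (same sum and quantiles), while Snap25 was at 0.72 under the length trend. Of all genes, 16.3% were higher in that comparison under the 2-fold rule. For the genotype difference at Zt+6 minus that at Zt+16, the number above the fold went from 2 to 6 under quantiles and 1 under either length trend, and the number below from 1 to 3 under the same median, 2 under the length trend and 0 under the same sum and quantiles. Under quantiles it was 1.41 for Snap25, 0.65 for Syp and 1.02 for Syn1. The share of all genes past the fold in this difference was not computed, so these counts have no background.

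In the wider list, the number higher at Zt+6 went from 49 to 24 (same median) and 11 (either length trend), and the number lower from 6 to 21 (same median), 11 (quantiles), 15 (length) and 16 (coding length). Of all genes, 15.0% (same median), 12.6% (length) and 12.1% (coding length) were then higher. The shares lower were 24.4% (same median), 20.6% (quantiles), 13.5% (length) and 12.4% (coding length). At Zt+16 the number higher went from 21 to 1 (same median), 0 (same sum and quantiles), 3 (either length trend) and 2 (2-fold). Under these settings 0.311% to 1.22% of all genes were higher. Over time in WT, the number higher went from 5 to 9 (same median), 1 (same sum, quantiles and 2-fold) and 3 (coding length), and the number lower from 18 to 39 (same sum), 9 (either length trend) and 6 (2-fold). Of all genes, 10.8% (same median), 0.456% (same sum), 3.94% (quantiles), 0.466% (2-fold) and 3.13% (coding length) were higher. The shares lower were 29.6% (same sum), 6.66% (length), 6.51% (coding length) and 2.32% (2-fold). In Snord116del the number higher went from 23 to 8 (same sum) and 12 (quantiles), and the number lower from 40 to 61 (same sum), 18 (length) and 17 (coding length). Of all genes, 7.95% (same sum) and 30.2% (quantiles) were higher, and 67.4% (same sum), 24.9% (length) and 24.8% (coding length) were lower.

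The number of peaks of WT 116HG replicate 1 at the 8 genes went from 133 to 59 in the upper quartile of the fold over input. The number of genes with a replicated peak went from 1 to 0 under direct overlap and 5 within 50 kb. The share of all genes was not computed for direct overlap or for 50 kb, so these counts have no background. The number with a peak of either WT 116HG library ranged from 0 without replicate 1 to 8 without replicate 2. The table and the lists hold no read counts, so no limit set by depth is given.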

Other observations

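The following genes were chosen after their values were seen. Nckap1, a subunit of the WAVE complex that regulates actin, had nearly the same levels as Sv2a in every group, with 10.1 FPKM in WT and 51.0 FPKM in Snord116del at Zt+6, and 1.36 and 2.07 FPKM at Zt+16. Its centred log2 profile lay 0.0654 from that of Sv2a, and the next nearest of 2660 genes lay at 0.531. Napb, which encodes the SNARE recycling factor beta-SNAP, was also among the 5 nearest to Sv2a, at 0.656, with 9.54, 38.0, 2.10 and 2.82 FPKM in the order of groups used above. Nearest to Syt1 was Dstn, the gene of the actin depolymerizing factor destrin, at a distance of 0.0684, with 11.3, 38.5, 4.59 and 7.14 FPKM. With 4 values per gene, such distances describe these groups only.

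Atp6v0c, which encodes the ring subunit of the proton pump that acidifies the vesicle, had 60.5 FPKM in WT and 315.3 FPKM in Snord116del at Zt+6, was listed at 0 in WT at Zt+16 and had 0.486 FPKM in Snord116del at Zt+16. The 0 may be a failed estimate, and no fold is given against it.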
